A study of Mus musculus with 3 samples.

Results

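The glucocorticoid receptor gene Nr3c1 and the glucocorticoid-induced genes Fkbp5 and Tsc22d3 were examined in mouse thymocyte RNA, 3 genes of 6795 named on the array. They were chosen by their log ratios in the comparison reported here, so those ratios are given as a description with no test. Each gene was measured by 1 probe. The arrays compared total RNA of CD69hi thymocytes purified from wild-type B6 mice with RNA of unseparated thymocytes from Zap70-/- mice, in which the T cell receptor (TCR) kinase Zap70 is missing. Titles call the Zap70-/- RNA CD69lo. Thymocytes raise the surface protein CD69 when the TCR signals during selection, and the comparison asks which transcripts go with that step. There were 3 two-colour arrays of the same print, with CD69hi RNA in Cy3 and Zap70-/- RNA in Cy5 on arrays 1 and 2 and the dyes exchanged on array 3. Genotype, purification and cell composition all differ between the 2 RNAs and cannot be told apart here. Age and sex of the mice, and whether the RNAs came from separate mice or pools, are not stated in the labels, so the spread between arrays, and any p-value resting on it, may be technical only.

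Glucocorticoids enter the cell and bind the receptor encoded by Nr3c1, which is held in the cytoplasm by Hsp90 and its co-chaperones and then moves to the nucleus to bind DNA. Fkbp5 encodes FKBP51, an Hsp90 co-chaperone that lowers the hormone affinity of the receptor and is itself induced by it, which closes a feedback loop. Tsc22d3 encodes GILZ, a leucine zipper protein induced by glucocorticoids in thymocytes that restrains NF-κB and AP-1. Immature CD4+CD8+ (double-positive) thymocytes die readily when exposed to glucocorticoids, and TCR and glucocorticoid signals can each oppose death caused by the other.

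The promoter windows of Fkbp5 and Tsc22d3 are shown because both genes are textbook receptor targets and both RNAs were lower in CD69hi cells. Each window holds 250 bases before and 50 after a RefSeq transcript start on GRCm38.p6, read 5′ to 3′ on the minus strand, and capitals mark matches to the motifs searched on both strands.
Fkbp5, chr17:28486100-28486399: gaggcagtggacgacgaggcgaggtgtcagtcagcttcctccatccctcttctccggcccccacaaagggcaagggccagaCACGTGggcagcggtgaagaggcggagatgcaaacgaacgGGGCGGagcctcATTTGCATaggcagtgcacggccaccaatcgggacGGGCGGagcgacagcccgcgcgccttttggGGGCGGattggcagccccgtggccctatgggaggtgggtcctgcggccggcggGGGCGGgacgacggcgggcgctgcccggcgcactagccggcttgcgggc
Tsc22d3, chrX:140600473-140600772: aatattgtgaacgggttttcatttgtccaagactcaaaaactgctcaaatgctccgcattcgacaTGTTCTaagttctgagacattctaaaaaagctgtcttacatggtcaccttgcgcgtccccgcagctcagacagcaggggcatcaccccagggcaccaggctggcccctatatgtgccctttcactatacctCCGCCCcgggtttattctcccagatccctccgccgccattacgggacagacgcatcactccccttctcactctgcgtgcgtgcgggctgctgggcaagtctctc
Tsc22d3, chrX:140542619-140542918: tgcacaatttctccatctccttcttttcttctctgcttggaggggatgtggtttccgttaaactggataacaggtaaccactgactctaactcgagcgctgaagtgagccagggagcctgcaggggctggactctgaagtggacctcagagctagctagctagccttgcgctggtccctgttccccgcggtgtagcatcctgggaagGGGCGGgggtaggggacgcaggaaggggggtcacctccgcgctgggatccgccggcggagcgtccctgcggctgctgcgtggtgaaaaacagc

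The receptor binds a palindrome made of the hexamers AGAACA and TGTTCT with 3 bases between them. That complete element was found in none of the windows of either gene, and in 3 of the 32851 windows of the RefSeq table (0.00913%). The single hexamer TGTTCT occurred once, at position -185 of the Tsc22d3 window that starts at 140600473, where -1 is the base before the transcript start. On either strand, 19.0% of all windows held it. The Fkbp5 window held the GC box GGGCGG at 4 positions (-129, -82, -52 and 2), and 35.7% of all windows held at least 1. It also held the octamer ATTTGCAT at -117 (1.74% of all windows) and the E-box CACGTG at -169 (7.15%). Both printed Tsc22d3 windows held 1 GC box. Neither TGTTTAC (3.65% of all windows) nor TGACGTCA (1.79%) matched in any of them. A further Tsc22d3 window, chrX:140548522-140548821, matched none of the 7 motifs. The motif letters do not overlap each other in these windows, except that the hexamer is part of the complete element by construction. A match is only a run of letters, and a missing match says nothing of receptor binding elsewhere in the gene.

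The deposited value of each probe is a log ratio of the 2 dyes, taken here as log2 and turned so that negative values mean less in CD69hi RNA. This direction is likely but not stated. It rests on the labelled dyes and on Rag1, the recombinase gene of immature thymocytes, at -1.19 ± 0.36 (SD, n = 3), with the TCR-induced gene Cd5 at 4.75 ± 0.43. Dntt, the terminal transferase of the same stage, averaged -1.05 ± 0.71 and did not pass (limma adjusted p = 0.12). Before turning, array 3 correlated across probes with arrays 1 and 2 at Pearson r = -0.25 and -0.40, and arrays 1 and 2 with each other at 0.61. Probes are not independent replicates. Of 8905 features tested, 368 were called higher in CD69hi RNA (4.13%) and 250 lower (2.81%), by limma at a Benjamini-Hochberg adjusted p of at most 0.05. At an unadjusted p under 0.05, 1069 of the 8905 were higher and 1014 lower. Unadjusted counts for the gene lists below are to be read beside these. The ratios carry no expression level, so the presence of thymocyte marker RNA could not be checked, only its ratio. Less RNA per cell and fewer cells of a kind cannot be told apart in these bulk RNAs.

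All 3 members were lower in CD69hi RNA on every array. Nr3c1, the receptor itself, had log2 ratios of -1.74, -1.79 and -1.88 on arrays 1, 2 and 3. The 3 values lay close together, with a mean of -1.80 ± 0.07 (SD, n = 3), so the Nr3c1 signal was 3.49-fold lower in CD69hi than in Zap70-/- RNA. Fkbp5 gave -3.21, -3.05 and -1.85. Its mean was -2.71 ± 0.75 (SD, n = 3), or 6.52-fold lower in CD69hi RNA, and array 3 was the least negative. Tsc22d3 gave -2.60, -2.71 and -0.99. Its mean was -2.10 ± 0.96 (SD, n = 3), or 4.29-fold lower in CD69hi RNA, and here too array 3 stood apart from the other two. If the deposited logarithm were natural, the folds would be 6.07 for Nr3c1, 15.0 for Fkbp5 and 8.18 for Tsc22d3.

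**Figure D1:**
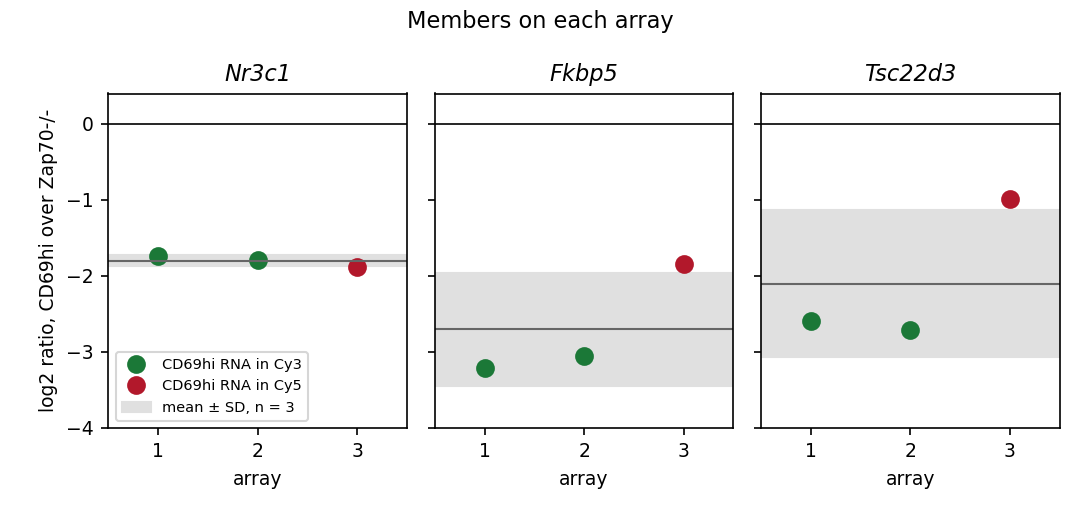
Log2 ratio of CD69hi over Zap70-/- RNA (y axis) for Nr3c1, Fkbp5 and Tsc22d3 on arrays 1 to 3 (x axis). Points are single arrays coloured by the dye on the CD69hi RNA, and the line and band are the mean and SD over 3 arrays. Nr3c1 lies between -1.74 and -1.88, while Fkbp5 and Tsc22d3 reach -1.85 and -0.99 on array 3.

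Fkbp5 had the 5th lowest mean among the 6795 genes, Tsc22d3 the 27th and Nr3c1 the 47th. Of the 3 members, Fkbp5 had the lowest ratio on arrays 1 and 2, while on array 3 it lay above Nr3c1 by 0.033. Fkbp5 was below Tsc22d3 on all 3 arrays, by 0.62, 0.34 and 0.86 on the log2 scale. Tsc22d3 was below Nr3c1 on arrays 1 and 2 but above it by 0.89 on array 3, so the order of these 2 ratios did not hold beyond the spread between arrays. Within array 3, Nr3c1 ranked 54th from the bottom, Fkbp5 58th and Tsc22d3 335th, which left 4.92% of genes below Tsc22d3.

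The array with exchanged dyes stood apart for Fkbp5 and Tsc22d3, but not for Nr3c1. Array 3 exceeded the mean of arrays 1 and 2 by 1.29 for Fkbp5 and 1.66 for Tsc22d3, against -0.12 for Nr3c1. A smaller negative ratio on array 3 was common: of the 250 features called lower, 182 (72.8%) had their smallest absolute ratio there, against 34.0% of all features. The median of those 250 features was -1.24, -1.37 and -0.92 on arrays 1, 2 and 3. Of the 368 called higher, 23.6% were smallest on array 3. With a dye term in the fit, the members' ratios became -1.82 for Nr3c1, -2.49 for Fkbp5 and -1.82 for Tsc22d3. Whether dye, RNA sample or array produced the gap was not tested, since only 1 array had this orientation.

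**Figure D2:**
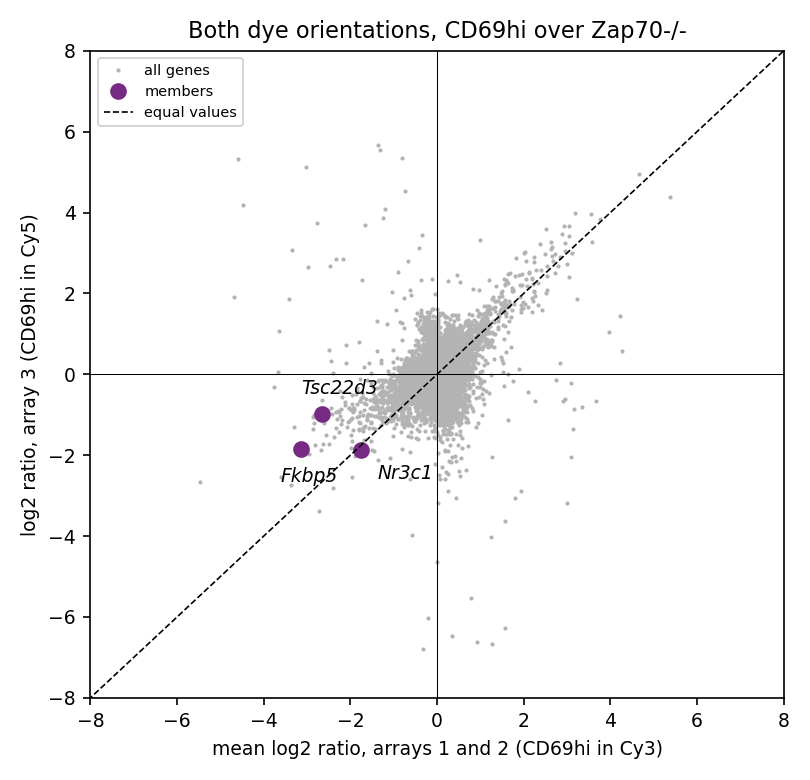
Mean log2 ratio of arrays 1 and 2 (x axis, CD69hi RNA in Cy3) against the log2 ratio of array 3 (y axis, CD69hi RNA in Cy5) for 6795 genes (grey points), with the 3 members in purple and equal values dashed. Nr3c1 lies near the line of equal values, and Fkbp5 and Tsc22d3 lie 1.29 and 1.66 above it.

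Likeness to each member was measured as the Euclidean distance over the 3 array values among the other 6794 genes, as a description. The closest to Nr3c1 were Papss2, a sulphate donor synthase (distance 0.255), the ligand gene Wnt5b (0.309), the cytokine signalling inhibitor Socs3 (0.372), Agtrap (0.522) and the topoisomerase Top2a (0.537). Their mean log2 ratios ran from -1.65 to -1.93. The closest to Fkbp5 were the amino acid transporter Slc43a1 (0.355), Desi1 (0.475), the surface antigen gene Ly6d (0.637), the DNA repair subunit Xrcc6 (0.655) and the retinal reductase Dhrs3 (0.712). Mxd3 (0.208), a transcription factor of the MAX network, was closest to Tsc22d3, followed by the mitotic checkpoint kinase Bub1b (0.229), the cyclin Ccnf (0.315), the mitotic kinase Aurkb (0.331) and the granzyme Gzma (0.335). Fkbp5 and Tsc22d3 were 1.11 apart. Tsc22d3 was the 13th closest gene to Fkbp5, and Fkbp5 the 44th closest to Tsc22d3.

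No gene of the chaperone machinery that holds the receptor passed the test. Of 24 listed chaperones and co-chaperones, 16 were measured, with 0 called in either direction (limma; unadjusted p under 0.05 for 1 higher and 2 lower) and a median log2 ratio of -0.19, against 0.01 for all features. Hsp90aa1, the inducible cytosolic Hsp90, gave -1.10, -0.93 and -0.34 (mean -0.79 ± 0.40, SD, n = 3, adjusted p = 0.091). Once array 3 was left out it passed (adjusted p = 0.039), as it did when dye was modelled (adjusted p = 0.045), with 2 chaperones called lower in each of those fits. Both fits take their residual spread from arrays 1 and 2 alone, so they are not separate checks. Without array 1, 1 chaperone (Hspa1a) was called higher (adjusted p = 0.018). Fkbpl, a divergent FKBP-like protein, gave -0.64, -0.75 and -0.53 (mean -0.64 ± 0.11, adjusted p = 0.061), and passed when dye was modelled (adjusted p = 0.046). Fkbp4, which encodes FKBP52, the co-chaperone that competes with FKBP51 for Hsp90 and favours receptor activity, is named after its values were seen. It gave -1.22, -1.04 and 0.08 (mean -0.73 ± 0.70, adjusted p = 0.23), so its sign was not the same on every array, and it passed without array 3 (mean -1.13, adjusted p = 0.036).

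The relatives of the 2 target genes did not pass over all 3 arrays. Of 9 FKBP family genes measured besides Fkbp5, 0 were called (limma; unadjusted p under 0.05 for 0 higher and 2 lower), and their median was -0.36. Fkbp4 was called lower without array 3 and Fkbpl when dye was modelled, 1 gene in each of those fits. The prolyl isomerase Fkbp2 averaged -0.55 ± 0.35 (SD, n = 3, adjusted p = 0.16). In the TSC22 family, 0 of 2 were called (0 at an unadjusted p under 0.05), with Tsc22d1 at 0.34 ± 0.13 and Tsc22d4 at -0.16 ± 0.25 (adjusted p = 0.22 and 0.58). All 11 lay above Nr3c1, Tsc22d3 and Fkbp5 in mean ratio, as did each of the 127 pathway genes measured. The members were chosen by these ratios, and only 46 of all 6795 genes lay below Nr3c1. A place above them is therefore shared by nearly all genes. Of 16 coregulators and chromatin remodelling factors that work with nuclear receptors, 0 were called (0 higher and 4 lower at an unadjusted p under 0.05), with a median of -0.25. The histone deacetylase Hdac1 averaged -0.77 ± 0.44 and the acetyltransferase Crebbp -0.48 ± 0.21 (adjusted p = 0.11 and 0.14). Of the other steroid receptors, the estrogen receptor Esr1 (-0.05 ± 0.31) and the estrogen-related receptor Esrra (0.18 ± 0.32) were measured, and 0 of these 2 were called (0 at an unadjusted p under 0.05).

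Other genes listed as glucocorticoid-induced lay between -0.94 and 2.76 in mean log2 ratio, all above Fkbp5 and Tsc22d3. Among all 6795 genes, only 26 lay below Tsc22d3 and 4 below Fkbp5. Of 48 listed, 29 were measured. Of these, 9 rose in CD69hi RNA (31.0%, beside 4.13% of all features), 0 fell and 20 did not pass (limma). At an unadjusted p under 0.05, 11 of the 29 were higher and 4 lower, beside 1069 and 1014 of 8905 features. On every array, 12 of the 29 were above 0 and 5 were below 0. Lcn2, named after its values were seen, had the lowest mean. It gave -1.20, -1.20 and -0.43 (mean -0.94 ± 0.44, SD, n = 3, limma adjusted p = 0.072). The median of the 29 was 0.22. Il7r, whose protein receives the interleukin-7 survival signal, gave 2.60, 3.01 and 2.68 and was 6.77-fold higher (mean 2.76 ± 0.22, SD, n = 3, adjusted p = 0.0057). Gadd45b, a stress and TCR-responsive signalling protein, gave 2.15, 2.68 and 1.58 (mean 2.14 ± 0.55, adjusted p = 0.020). Gpr65, a proton-sensing receptor first described in dying T cells, gave 1.66, 1.86 and 2.09 (mean 1.87 ± 0.22, adjusted p = 0.010). Gpr83, known as the glucocorticoid-induced receptor, gave 0.86, 1.98 and 1.91 (mean 1.58 ± 0.62, adjusted p = 0.041). All 4 were above 0 on every array. Gadd45b did not pass without array 1 (adjusted p = 0.053). Gpr83 missed the threshold when array 2 (0.14) or array 3 (0.092) was dropped and when dye was modelled (0.057), and only 1 of its 2 probes passed alone (2.14, adjusted p = 0.033, against 1.02, adjusted p = 0.071).

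Tgfbr2, Pdk4, Birc3, Cish and Xdh made up the other 5 risers, with means from 0.81 to 1.15. The classical targets Per1, a clock gene, and Klf9, a zinc finger factor, are named after their values were seen. Per1 averaged 0.34 ± 0.21 (SD, n = 3, adjusted p = 0.25) and Klf9 -0.25 ± 0.32 (adjusted p = 0.45). Dropping array 1 or array 2 gave 3 risers in place of 9, and dropping array 3 gave 7 risers and 2 that fell. Many of the listed genes have inducers besides glucocorticoids, among them TCR and cytokine signals, and the list was drawn up with earlier results of these arrays known. In the RefSeq windows, 1 of the 22 listed genes both measured and given a window (Sgk1) held the hexamer TGTTCT on either strand. Among all genes with a window, 21.3% held it. Listed genes that were not measured were not searched.

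**Figure D3:**
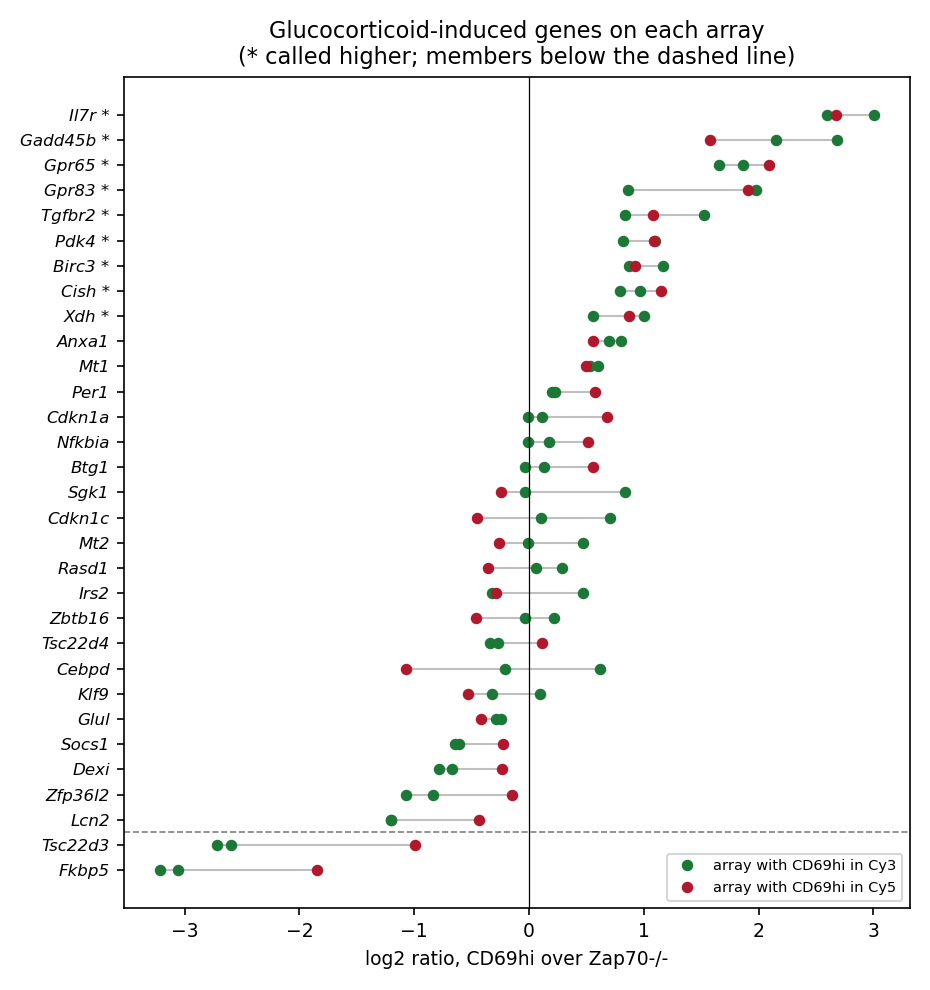
Log2 ratio of CD69hi over Zap70-/- RNA (x axis) for each of 29 listed glucocorticoid-induced genes (rows), with Tsc22d3 and Fkbp5 below the dashed line. Points are the 3 arrays coloured by the dye on the CD69hi RNA, grey lines join them, and asterisks mark the 9 genes called higher, led by Il7r at 2.76.

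Several immune genes that glucocorticoids are known to repress rose. Of the 16 genes measured from this list, 5 passed with higher values (31.2%, beside 4.13% of all features) and 0 fell (limma). The median was 0.53. At an unadjusted p under 0.05, 8 were higher and 1 lower. The 1 lower was Pomc (-0.37 ± 0.11, SD, n = 3), a hormone precursor gene on the list and not an immune gene. The adhesion molecules Vcam1 (2.76, 1.60 and 1.54, mean 1.97 ± 0.69, SD, n = 3, adjusted p = 0.032) and Icam1 (1.40, 1.51 and 1.57, mean 1.49 ± 0.08, adjusted p = 0.011) had the largest ratios. Il12b, the interleukin-12 p40 chain, averaged 1.07 ± 0.26 and the chemokine Ccl5 1.05 ± 0.24 (adjusted p = 0.032 each). Cxcl10 was the 5th. The number rising was 2, 1 and 3 without arrays 1, 2 and 3. Vcam1 missed the threshold when array 3 was dropped (adjusted p = 0.059) and when dye was modelled (0.053), and Icam1 when array 2 was dropped (0.062). Il12b missed in all 3 leave-one-out fits (0.058 to 0.21), and Ccl5 without array 1 (0.13) or array 2 (0.21). Interleukin-2, the T cell growth factor gene Il2, gave 0.02, 0.09 and 0.81 (adjusted p = 0.44) and is named after its values were seen.

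Of 13 genes of steroid synthesis, transport and metabolism, Hsd11b1 rose (7.69%, beside 4.13% of all features) and 0 fell (limma; unadjusted p under 0.05 for 3 higher and 0 lower). The list median was 0.14. Hsd11b1, the reductase that regenerates active glucocorticoid inside cells, gave 1.06, 1.15 and 1.35, a 2.28-fold difference (mean 1.19 ± 0.15, SD, n = 3, adjusted p = 0.020). It did not pass without array 1 (adjusted p = 0.072) or array 2 (0.12).

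Among genes whose proteins are bound by FKBP51 or GILZ, 1 of 9 measured rose (11.1%, beside 4.13% of all features) and 0 fell (limma; unadjusted p under 0.05 for 2 higher and 0 lower). That gene was Fos, the AP-1 subunit, at 2.02, 2.47 and 2.04 (mean 2.18 ± 0.25, SD, n = 3, adjusted p = 0.0091). The list median was 0.20. In the apoptosis machinery, through which glucocorticoids kill thymocytes, 3 of 19 fell (15.8%, beside 2.81% of all features) and Birc3 rose (5.26%, beside 4.13%), with a median of 0.04. The 3 that fell were Bid, a BH3-only death agonist (-1.58, -1.51 and -0.84, mean -1.31 ± 0.41, adjusted p = 0.033), Bcl2l1, which encodes the survival protein Bcl-xL (-1.09, -1.04 and -0.84, mean -0.99 ± 0.13, adjusted p = 0.028), and the caspase Casp2 (mean -0.92 ± 0.24, adjusted p = 0.039). Birc3, an inhibitor of apoptosis and also a listed glucocorticoid-induced gene, averaged 0.99 ± 0.16 (adjusted p = 0.029). None of these 4 passed without array 1 (adjusted p from 0.11 to 0.18) or without array 2 (0.15 to 0.26), and Casp2 did not with scaled arrays (0.051).

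**Figure D4:**
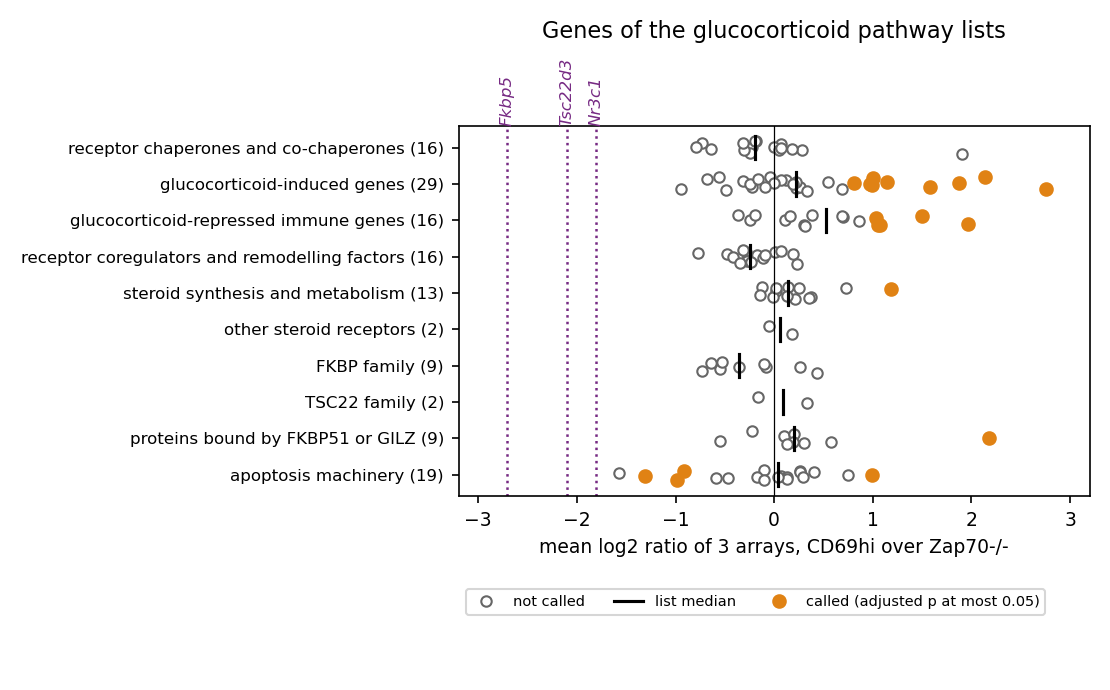
Mean log2 ratio over 3 arrays (x axis, CD69hi over Zap70-/-) of 127 genes in 10 lists (rows, measured genes in brackets). Filled points passed at an adjusted p of at most 0.05, open points did not, black bars are list medians, and dotted lines give the means of the 3 members, which lie to the left of every listed gene. Only 46 of all 6795 genes have a lower mean than Nr3c1.

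Marker lists of the cells these RNAs could hold were read in the same comparison, beside 4.13% of all features called higher and 2.81% lower. Of 13 genes listed as markers of immature double-positive thymocytes, 5 fell (38.5%) and 2 rose (15.4%), with a median of -1.05. The 2 that rose were Tox (2.65) and St6gal1 (2.38). The number that fell was 2 without array 1 or array 2, and 7 without array 3. Of 18 markers of proliferating cells, 7 fell (38.9%) and 0 rose (limma; unadjusted p under 0.05 for 0 higher and 18 lower). Their median was -1.54, -1.92 and -0.84 on arrays 1, 2 and 3, least negative on array 3 as were Fkbp5 and Tsc22d3. The medians of the double-positive markers (-1.03, -1.24 and -0.46) and of the 250 features called lower (-1.24, -1.37 and -0.92) were also least negative there. The count of 7 proliferation markers was 0 without array 1 or array 2, 14 without array 3 and 4 with scaled arrays. Of 23 macrophage, dendritic cell and granulocyte markers, 12 rose (52.2%) and 1 fell (4.35%), with a median of 1.11. While 17 were above 0 on every array, 4 were below 0 on every array, all granulocyte genes. These were S100a8 (mean -0.865), S100a9 (-1.98), Ltf (-0.49) and Mpo (-0.31). S100a8, the 1 that fell, did not pass without array 1, without array 2 or with scaled arrays. Myeloid cells also express several of the listed risers, among them Vcam1, Icam1, Il12b and Hsd11b1. Of 8 B cell and 10 thymic epithelial or stromal markers, 0 were called (limma; unadjusted p under 0.05 for 3 higher and 0 lower, and 0 higher and 2 lower). Epcam, an epithelial adhesion molecule, was called lower without array 3 (adjusted p = 0.029), and Epcam and the collagen gene Col1a2 when dye was modelled (0.035 and 0.049). Of 6 T cell markers, Cd5 rose and 0 fell (limma; unadjusted p under 0.05 for 0 lower), and the median was 0.00. The share of these cell differences in the ratios of the members, or of the listed risers, was not tested.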

How the data were processed

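RNA of CD69hi and of Zap70-/- thymocytes was hybridised together on 3 arrays, which form 1 group, and the dyes were exchanged on array 3, per the labels. As deposited, each probe carries a dye ratio on a log scale, taken as log2 because the lowest values would exceed a scanner's range as log10. How the authors corrected background, filtered or normalized the log2 ratios, and the base itself, was not stated in the labels. Spot intensities were not used. Array medians lay between -0.005 and -0.002. Precision is limited by the 3 arrays.

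Arrays 1 and 2 were multiplied by -1. The platform annotation gave 1 symbol for 7486 of the 9596 probes, several for 483 and none for 1627. Symbols were checked through Entrez identifiers (7395 found in RefSeq, 0 changed), and probes were averaged per symbol, which gave 8905 features. Spotted probes may also bind related transcripts. Limma 3.58.1 (lmFit, eBayes, R 4.3.3) fitted 1 coefficient with 2 residual degrees of freedom, two-sided, with Benjamini-Hochberg adjustment over all features. The fit was tested on simulated data of independent arrays. No dye or array effect was simulated, so that test cannot show how reliable the calls reported here are. Promoter sequences are from RefSeq (GRCm38.p6), which listed windows for Fkbp5 and Tsc22d3. Probe coordinates are not given.

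The members and the 10 pathway and 6 marker lists were chosen with earlier results of these data known, and the members were left out of every list. Named were the members, up to 4 called genes per pathway list by absolute ratio or, where none passed, the 2 with the largest moderated t, the 5 genes nearest each member, and the markers Rag1 and Dntt. Genes named outside this rule, chosen after their values were seen, are Cd5, Fkbp4, Per1, Klf9, Il2, Sgk1, Cxcl10, Tgfbr2, Pdk4, Cish, Xdh, Hspa1a, Epcam and Col1a2. So are Lcn2, Pomc and the markers S100a8, S100a9, Ltf, Mpo, Tox and St6gal1. The alternatives left out each array, scaled or centred the arrays, added a dye term, left array 3 unturned, used robust shrinkage, fitted probes alone or limited ratios to 4.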

Additional observations from a re-analysis of the deposited data

How the results depend on the processing

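Leaving out each array moved the mean log2 ratio between -1.83 and -1.76 for Nr3c1, between -3.13 and -2.45 for Fkbp5 and between -2.66 and -1.80 for Tsc22d3. With array 3 unturned, which contradicts the labelled dyes, the ratios were -0.55 for Nr3c1, -1.47 for Fkbp5 and -1.44 for Tsc22d3, and 0 features were called in either direction (limma; unadjusted p under 0.05 for 209 higher and 133 lower), nor was any pathway gene (0 higher and 0 lower; 1 and 1 unadjusted). The counts of 368 higher and 250 lower features ranged from 95 to 283 and from 24 to 409 when 1 array was left out, and were 562 and 514 with a dye term. Of the 127 pathway genes, 16 rose (12.6%, beside 4.13% of all features) and 3 fell (2.36%, beside 2.81%). These counts ranged from 5 to 12 and from 0 to 9 when 1 array was left out (the 0 held without array 1 and without array 2, with 6 and 7 lower at an unadjusted p under 0.05), and 6 fell with a dye term. A fit with 2 arrays or with a dye term has fewer residual degrees of freedom. With the dye term, array 3 is alone in its orientation, so the residual spread comes from arrays 1 and 2 only. Calls gained with that term are therefore not a check separate from the fit without array 3. Of the 14 named pathway genes called, Il7r, Gpr65 and Fos passed in all 3 leave-one-out fits, and 11 missed in at least 1. Centring, robust shrinkage, fitting probes alone and limiting ratios to 4 kept the feature and pathway totals within 1.5 times the reported ones, as did scaling. Among the marker lists, scaling gave 4 in place of 7 proliferation markers called lower, and 0 in place of 1 myeloid marker. Only 1 array had CD69hi RNA in Cy5, so dye and array are confounded there.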

Other observations

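Hspa1a, the stress-inducible Hsp70 chaperone that loads clients onto Hsp90, varied most among the chaperones of the receptor. Its value is the average of 2 probes, whose separate values are not given here. It gave log2 ratios of 0.41, 2.85 and 2.47 on arrays 1, 2 and 3, a mean of 1.91 ± 1.31 (SD, n = 3), and did not pass (limma adjusted p = 0.11). Without array 1 its mean was 2.66 and it passed (limma adjusted p = 0.018), the only chaperone called higher in any leave-one-out fit. Array 1 stood apart from the other two, whereas array 3 did so for Fkbp5 and Tsc22d3.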
